A study of Mus musculus with 2 samples.

Results

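The miR-181 family comprises 6 hairpin loci in the mouse, and all 6 were found by gene symbol among the 1973 loci counted in the midbrain libraries. The loci lie in 3 clusters of neighbouring hairpins, which are Mir181a-1 with Mir181b-1, Mir181a-2 with Mir181b-2, and Mir181c with Mir181d. The tissue was midbrain, the middle part of the developing brain, from embryos of the mouse strain B6NCrl at 13.5 days, with male and female embryos pooled and no treatment or mutation. MicroRNA-seq of RNA under 30 nt was made from 2 biological replicates, 1 library each, and these form the only group. The labels give both replicates the same donor record, and the sources used here do not give how far their embryos were independent.

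A microRNA is cut from a hairpin transcript, whose 5′ and 3′ arms can each give a mature strand of about the same length. Bases 2 to 8 of the mature strand, the seed, do most of the pairing with target messenger RNAs, so loci with 1 seed are treated as a family. The miR-181 family is best known from lymphocytes, where miR-181a tunes T-cell receptor signalling in thymocytes, and it is also abundant in brain. In cultures of human neural stem cells miR-181a has been reported to promote neuronal differentiation.

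The mature 5′ arms show what the family shares and where it divides, with the seed in capitals (RefSeq, build GRCm38.p6, 5′ to 3′):
miR-181a-5p: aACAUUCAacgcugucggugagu
miR-181b-5p: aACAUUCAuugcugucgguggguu
miR-181c-5p: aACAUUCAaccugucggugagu
miR-181d-5p: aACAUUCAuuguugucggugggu

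All 6 loci had the seed ACAUUCA in the 5′ arm, and no other locus in the RefSeq table had a mature strand with it. Beyond the seed the arms formed 2 types. Counting from 1 at the 5′ end, miR-181b-5p differed from miR-181a-5p by A9U, C10U and A21G, with 1 more base at its end, and miR-181d-5p differed from miR-181b-5p by C12U, with 1 base fewer. The arm of miR-181c was 1 edit from that of miR-181a, a missing base after 10 shared bases. The a and c arms are here called the a/c type, and the b and d arms the b/d type. This grouping by sequence was chosen after the counts had been seen.

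The mature 3′ arms differ between the copies, unlike the 5′ arms, and are printed again with bases 2 to 8 in capitals:
miR-181a-1-3p: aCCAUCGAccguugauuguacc
miR-181a-2-3p: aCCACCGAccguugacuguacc
miR-181c-3p: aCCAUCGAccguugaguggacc
miR-181b-1-3p: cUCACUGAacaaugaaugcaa
miR-181b-2-3p: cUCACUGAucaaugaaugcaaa
miR-181d-3p: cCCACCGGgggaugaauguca

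None of these 6 sequences occurred at another locus. The a-2 strand differed from the a-1 strand by U5C and U16C, and the c strand differed from the a-1 strand by U16G and U19G. The b-2 strand differed from the b-1 strand by A9U and 1 more base at its end. The a-1 and c strands had 1 seed, and so did the b-1 and b-2 strands, whereas the a-2 and d seeds were each found at 1 locus.

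The a and b hairpins exist in 2 copies each, on chromosomes 1 and 2, and their 5′ arms cannot be told apart by sequence. The hairpins are printed with the longest exact run shared by the copies in capitals (RefSeq, GRCm38.p6, plus strand):
Mir181a-1, chr1:137966455-137966541: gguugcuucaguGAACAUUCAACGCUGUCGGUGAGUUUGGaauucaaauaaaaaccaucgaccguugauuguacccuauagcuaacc
Mir181a-2, chr2:38852735-38852810: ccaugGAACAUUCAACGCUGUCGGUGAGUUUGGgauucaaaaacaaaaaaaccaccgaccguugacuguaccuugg
Mir181b-1, chr1:137966639-137966718: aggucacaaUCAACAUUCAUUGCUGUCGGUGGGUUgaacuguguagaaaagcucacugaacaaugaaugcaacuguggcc
Mir181b-2, chr2:38853830-38853918: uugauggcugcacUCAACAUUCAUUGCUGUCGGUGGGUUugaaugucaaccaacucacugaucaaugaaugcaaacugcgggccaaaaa

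The run shared by the a copies was 28 nt and held the whole 23-nt 5′ arm with 1 base before it and 4 after it. The run shared by the b copies was 26 nt and held the whole 24-nt arm with 2 bases before it and 0 after it. The tables keep multimapping reads in a row of their own, outside the counts of single loci, so a read of the plain miR-181a-5p or miR-181b-5p strand is not among the counts of these 4 loci, except where it extends past the shared run. Counts are per hairpin and do not tell the arms apart. The levels of Mir181a-1, Mir181b-1, Mir181a-2 and Mir181b-2 given here are therefore levels of reads that could be placed, not of the mature microRNA, and in that sense they are uncertain. Mir181c and Mir181d, with no arm identical to one elsewhere, are free of this limit for exact copies. Of 916 loci in the tables with a RefSeq mature sequence, 87 (9.5%) had at least 1 arm identical to an arm of another locus.

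The clusters differ in spacing and in the transcripts they lie in, by GENCODE M21 on the assembly of the deposited tables. Mir181a-1 and Mir181b-1 are 97 bases apart on the plus strand of chromosome 1, in an intron of the noncoding transcript Gm4258, and both overlap an exon of the long noncoding RNA A430106G13Rik. Mir181a-2 and Mir181b-2 are 1019 bases apart on the plus strand of chromosome 2, opposite to an intron of Nr6a1, a gene for an orphan nuclear receptor, and have no annotated host on their own strand. Mir181d, from 84178716 to 84178787 on the minus strand of chromosome 8, and Mir181c, from 84178873 to 84178961, are 85 bases apart in an intron of Nanos3, a gene known from germ cells. The identifier of Mir181c in the tables, ENSMUSG00000065483.1, is an earlier version than that of the later annotation, and its interval in the annotation used for counting was not checked.

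Replicate 1 held 5093743 counts on the strand of a gene and replicate 2 held 2935841. The tissue markers were in part at high levels: Mir92b, a locus of neural progenitors, averaged 9214 ± 1094 CPM (SD, n = 2), where CPM is a locus's counts relative to the library total, and Mir137, a neuronal and progenitor locus, 7831 ± 2028 CPM. The miR-9 and miR-124 loci, whose mature strands come from several copies, lay between 1.64 and 377 CPM. All 9 counted loci of the progenitor and neuron list together held 1.90% of replicate 1 and 1.77% of replicate 2. Among markers of other cells, the endothelial Mir126a made up 1.63% of replicate 1 and 2.12% of replicate 2. The leukocyte list, of cells in which miR-181 is also known, held 0.0360% and 0.0405%, with 1 of its 6 counted loci at 0 in both libraries and Mir223 the highest at 172 CPM. Mir142, the other of its 7 loci, was not found by symbol, so its level is not in that share. Mir9-1 of the progenitor and neuron list and the endothelial Mir126b were not found either. The 3 erythroid loci held 0.00934% and 0.00869%. The part of these cells in the miR-181 counts was not tested.

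The 6 loci together held 3.68% of all counts in replicate 1 (3.66 to 3.69, the 95% interval by the exact Clopper-Pearson method) and 3.32% in replicate 2 (3.30 to 3.34), a mean of 3.50% ± 0.254 (SD, n = 2). Intervals of this kind cover counting error only, since each comes from 1 library and holds no spread between libraries. The reads carry no molecular identifiers, so repeated reads of 1 molecule cannot be told apart. Reads mapping to several places were 34.4% of all reads in replicate 1 and 37.7% in replicate 2, and numbered 20.4 and 26.6 times the miR-181 counts. The tables do not say which of them came from miR-181 strands.

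Mir181c was the leading member in placed reads, with 91183 counts in replicate 1 and 51045 in replicate 2. Its level was 17901 CPM in replicate 1 and 17387 CPM in replicate 2, a mean of 17644 ± 364 CPM (SD, n = 2). It ranked 14th and 15th of all loci and alone made up 48.7% and 52.4% of the family counts. By the rule for like levels, the nearest other loci over the 2 libraries were Mir149, at a distance of 0.15 on the log2 scale, and Mir20a, at 0.21.

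Mir181d, its neighbour on chromosome 8, had 47731 counts (9371 CPM) in replicate 1 and 19186 counts (6535 CPM) in replicate 2. The mean was 7953 ± 2005 CPM, with rank 20 in replicate 1 and 29 in replicate 2. The closest locus in level was Mir137, at 9265 CPM and 6397 CPM and a log2 distance of 0.035, followed by Mir744 at 0.30.

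Mir181a-1 followed with 31871 counts (6257 CPM) in replicate 1 and 21804 counts (7427 CPM) in replicate 2, a mean of 6842 ± 827 CPM. Unlike Mir181d it was lower in replicate 1, so the order of these members turned between the libraries, and their means differ by less than the SD of Mir181d. Its nearest loci in level were Mir151 and Mir23b, both at a log2 distance of 0.21. Mir181b-1, 97 bases away on the same strand, had only 125 counts (24.5 CPM, interval 20.4 to 29.2) in replicate 1 and 33 counts (11.2 CPM, interval 7.74 to 15.8) in replicate 2. It was the lowest member in placed reads in both libraries, with a mean of 17.9 ± 9.40 CPM. Mir873a and Mir615 were nearest to it in level, at 0.50 and 0.52.

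On chromosome 2 the b hairpin was the higher of the pair in placed reads. Mir181b-2 had 14632 counts (2873 CPM) in replicate 1 and 4128 counts (1406 CPM) in replicate 2, a mean of 2139 ± 1037 CPM. Mir181a-2 had 1773 counts (348 CPM) in replicate 1 and 1203 counts (410 CPM) in replicate 2, a mean of 379 ± 43.6 CPM. The groups of values of these neighbours did not overlap. The nearest loci in level were Mir101b and Mir107 for Mir181b-2, at 0.61 and 0.64, and Mir128-2 and Mir339 for Mir181a-2, at 0.087 and 0.21.

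**Figure D1:**
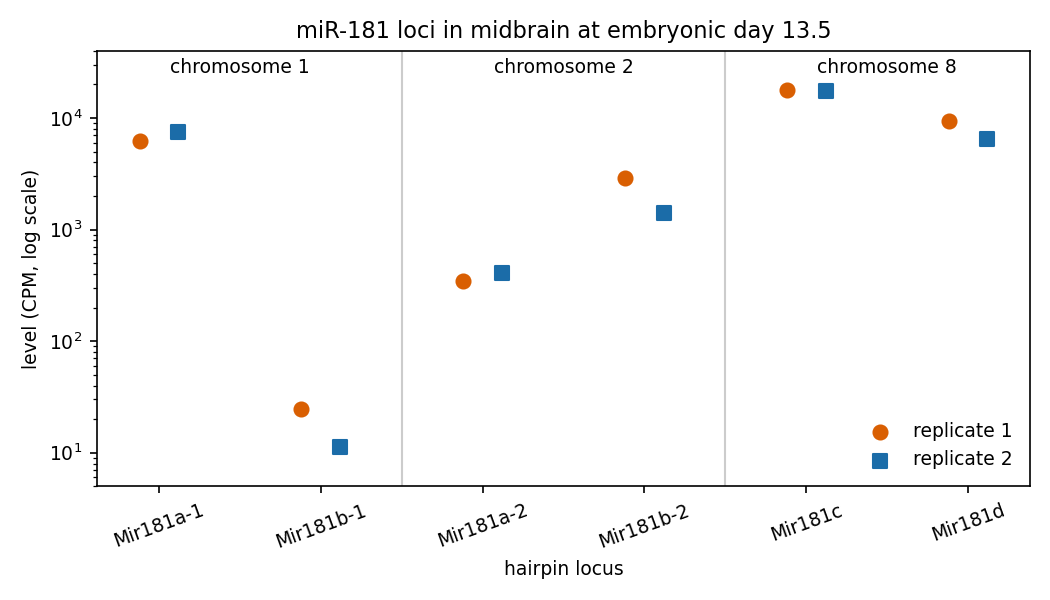
Level of each miR-181 hairpin locus in CPM (log axis) in replicate 1 (circles) and replicate 2 (squares), by chromosome. Levels are of placed reads, without plain 5′ strands of the a and b copies. The loci span from 11.2 CPM for Mir181b-1 in replicate 2 to 17901 CPM for Mir181c in replicate 1. The highest cluster in placed reads is that on chromosome 8.

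The order by mean of placed reads was c, d, a-1, b-2, a-2 and b-1. The gaps between neighbours in this order were larger than their spread over the replicates except that between Mir181d and Mir181a-1. Each cluster thus held a leading locus in placed reads, of the a/c type on chromosomes 1 and 8 and of the b/d type on chromosome 2. The shared run goes 4 bases past the 5′ arm in the a copies and 0 in the b copies, so reads are not placed alike. The base after the run is G in Mir181b-1 and U in Mir181b-2, so 1 more base at the 3′ end can place a b read. The part of this in the order within clusters was not tested.

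Summed by cluster, c/d took 74.2% of the family counts in replicate 1 (interval 74.0 to 74.4) and 72.1% in replicate 2 (71.8 to 72.4), a mean of 73.1% ± 1.45 (SD, n = 2). The a-1/b-1 cluster took 17.1% (16.9 to 17.3) in replicate 1 and 22.4% (22.2 to 22.7) in replicate 2, a mean of 19.8% ± 3.78. The a-2/b-2 cluster took 8.76% (8.63 to 8.89) and 5.47% (5.33 to 5.62), a mean of 7.12% ± 2.32. The clusters kept 1 order in both libraries, and none of the 3 pairs of counting intervals overlapped. Against all counts, c/d held 2.73% and 2.39%, a-1/b-1 held 0.628% and 0.744%, and a-2/b-2 held 0.322% and 0.182%. Because plain 5′ strands of the a and b copies are not in these sums, the shares describe placed reads and not the output of the clusters.

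**Figure D2:**
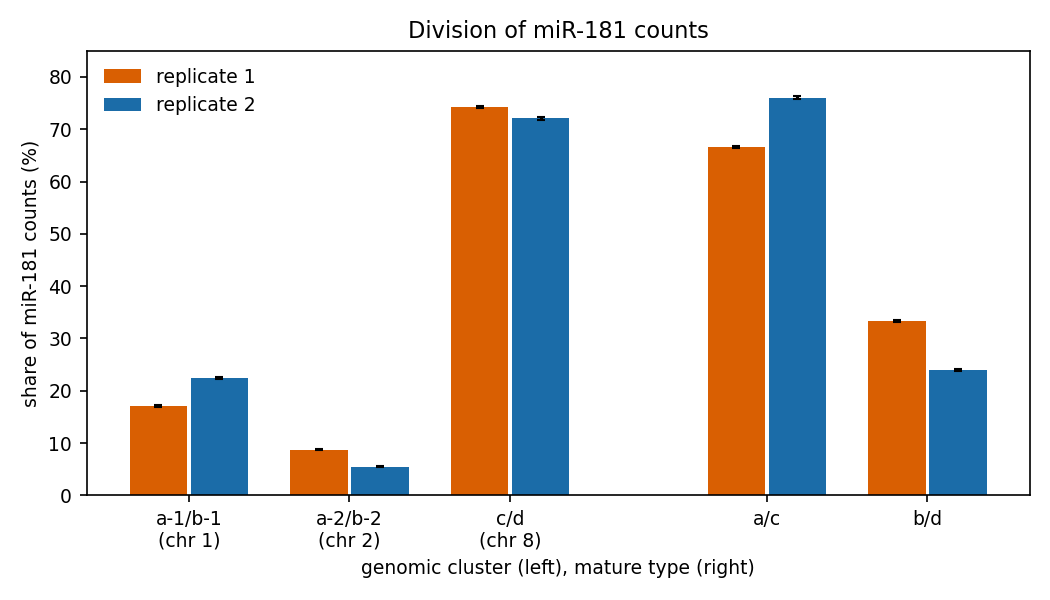
Share of the miR-181 counts in percent in replicate 1 and replicate 2, by genomic cluster on the left. On the right, loci are summed by the type of their 5′ arm (labelled mature type). Counts are placed reads, without plain 5′ strands of the a and b copies. Bars are single libraries and error bars are 95% exact Clopper-Pearson intervals. The c/d cluster holds 74.2% and 72.1%, and the b/d type holds 33.4% in replicate 1 against 24.0% in replicate 2.

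Within a cluster, the proportion of the neighbours differed between the libraries beyond counting error. Mir181a-1 had 255 times the counts of Mir181b-1 in replicate 1 (interval 214 to 306) and 661 times in replicate 2 (470 to 960). Mir181b-2 had 8.25 times the counts of Mir181a-2 in replicate 1 (7.86 to 8.67) and 3.43 times in replicate 2 (3.22 to 3.66). Mir181c had 1.91 times the counts of Mir181d in replicate 1 (1.89 to 1.93) and 2.66 times in replicate 2 (2.62 to 2.71). In each of the 3 clusters the intervals of the libraries lay apart, and the b/d member made up more of its cluster in replicate 1. Differences beyond counting error were common in these libraries. The test described below called 38.0% of all loci tested, and log2 ratios between the libraries had an SD of 0.31 over the 205 loci at 100 CPM or more.

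Copies on different chromosomes kept their proportion more closely. Mir181a-1 had 18.0 times the counts of Mir181a-2 in replicate 1 (17.1 to 18.9) and 18.1 times in replicate 2 (17.1 to 19.2). Mir181b-2 had 117 times the counts of Mir181b-1 in replicate 1 (98.2 to 141) and 125 times in replicate 2 (88.9 to 182). For both kinds of copy the intervals overlapped, but the width of an interval follows depth. That of the b copies in replicate 2 rests on 33 counts of Mir181b-1, so overlap says little there. Which copy was higher in placed reads differed, however, since the a copy on chromosome 1 and the b copy on chromosome 2 led. The intervals hold no spread between samples, and the difference between neighbour ratios and copy ratios was not tested.

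**Figure D3:**
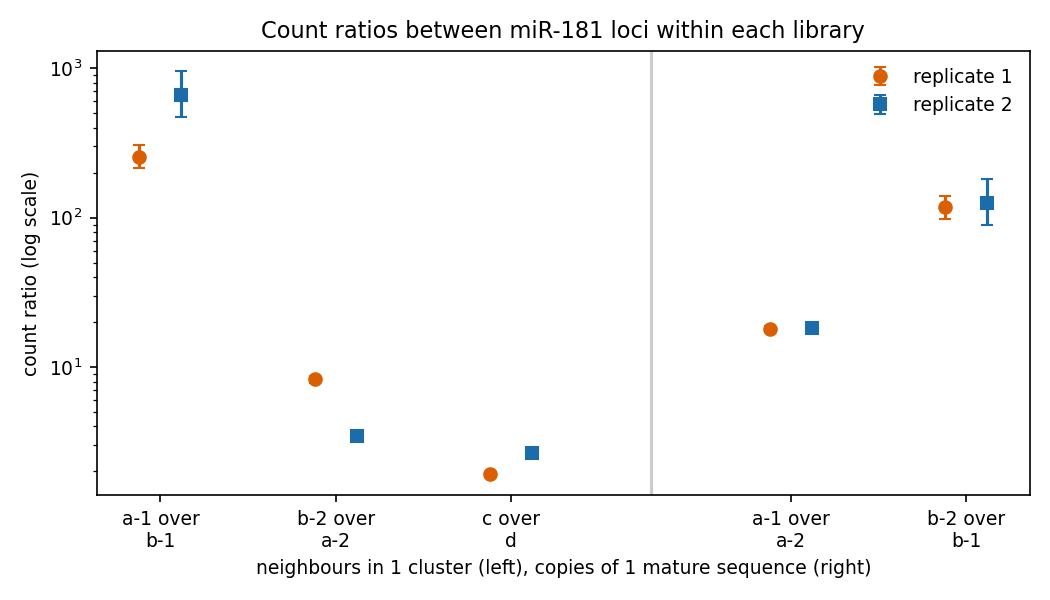
Ratio of counts between pairs of miR-181 loci within each library (log axis), for neighbours in 1 cluster on the left and for copies of 1 mature sequence on the right. Bars are 95% intervals from the exact binomial. The neighbour ratios differ between replicate 1 and replicate 2, as 8.25 and 3.43 for b-2 over a-2, while the copy ratios are 18.0 and 18.1 for a-1 over a-2.

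A list of other microRNAs with copies at several loci shows how unequal the placed counts of such copies were in these libraries. In 18 sets with more than 3 counts at every counted locus, the ratio of the highest to the lowest locus had a median of 2.08 in replicate 1 and 2.24 in replicate 2. Another 1 set was left out for a lower count. Mirlet7f-1 and Mir24-1 were not found by symbol, so their sets gave no ratio. The Mir181b copies, at 117 and 125, were exceeded in both libraries by 1 set, Mir9, whose counted loci stood at 227 and 148. The ratios of Mir9 rest on 9 and 7 counts at Mir9-2 and are uncertain. The Mir181a copies, at 18.0 and 18.1, were also exceeded by that set alone, and Mir92 followed at 15.2 and 13.7. The highest locus was the same in both libraries for all 18 sets, as it was for the miR-181 copies. Of the 40 loci of this list that entered the test between libraries described next, 11 (27.5%) were called higher in replicate 1 and 8 (20%) higher in replicate 2, against 18.7% and 19.3% of all loci tested, and their median log2 ratio was -0.03.

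**Figure D4:**
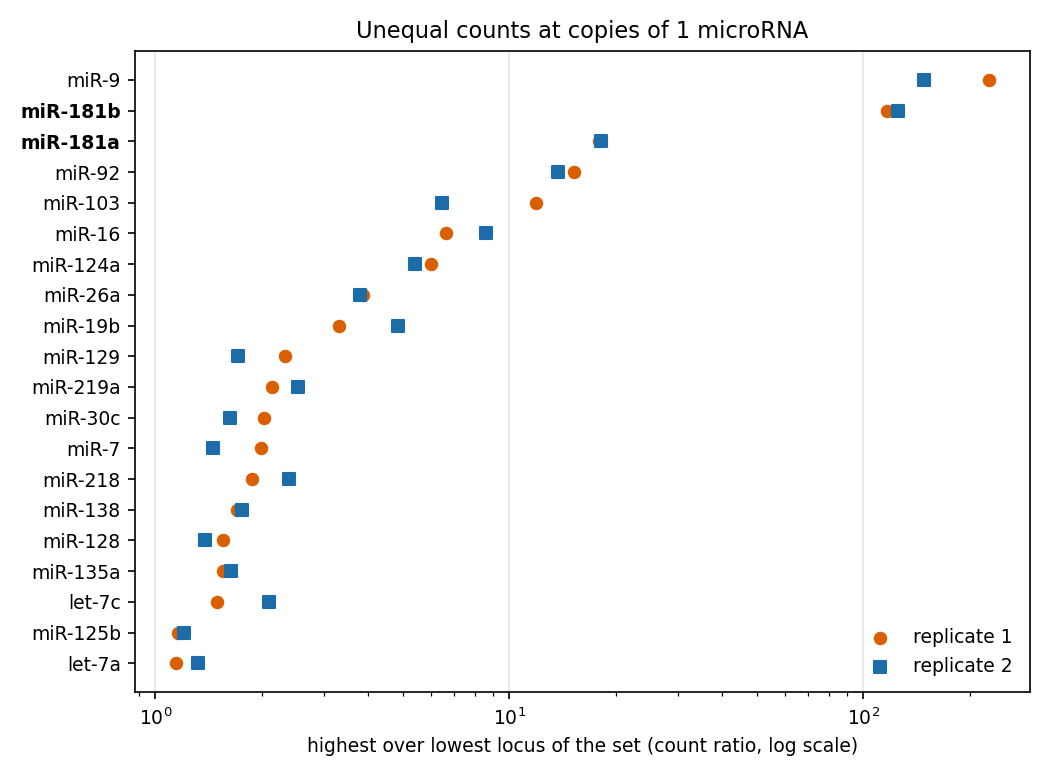
Ratio of counts between the highest and the lowest locus of each set of copies (log axis) in replicate 1 (circles) and replicate 2 (squares). The miR-181b copies, at 117 and 125, and the miR-181a copies, at 18.0 and 18.1, lie below miR-9 and above the other sets. The miR-9 ratios rest on 9 and 7 counts at Mir9-2.

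Differences between the libraries were tested per locus over all 466 loci with at least 10 counts in sum, by an exact conditional binomial test, two-sided, with library sizes scaled by TMM and p-values adjusted by Benjamini-Hochberg at a threshold of 0.05. The test called 177 loci, or 38.0% of those tested, with 18.7% higher in replicate 1 and 19.3% higher in replicate 2. It compares these libraries, not conditions, and takes in counting error alone. Loci with more counts are called more often, as 173 of 331 loci were called with a minimum of 50 counts. All 6 members pass that minimum, so 38.0% is a low background for them. All 6 members entered the test and all were called, with 3 higher in replicate 1. The other 3 were higher in replicate 2, among them Mir181c, whose sign depends on the scaling. With library totals alone the split was 4 and 2, and without the count minimum it was 3 and 2, as the call of Mir181c was lost. At counts as deep as those of the leading members it calls small differences, so the size of each difference and the edgeR exact test with the common dispersion between the libraries are given beside it. That dispersion gave a biological coefficient of variation of 0.157, and with it 4 of 466 loci (0.858%) and 0 of the 6 members were called. The dispersion was estimated from the same pair of libraries that the test then compares, so few calls are to be had from it by construction, and a p that misses the threshold there does not show that a locus was alike in both. At an unadjusted p under 0.05 the edgeR test had 24 loci, of which 2 were members.

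The 3 loci of the b/d type were higher in replicate 1. Mir181b-1 was 2.04-fold higher, with a log2 ratio of replicate 1 to replicate 2 of 1.03 (adjusted p = 0.00033 by the exact conditional binomial test, and 0.54 by the edgeR exact test). Mir181b-2 was 1.95-fold higher (log2 ratio 0.96), with an unadjusted p below 1e-300 by the exact conditional binomial test and an adjusted p of 0.18 by the edgeR exact test. Mir181d was 1.37-fold higher (log2 ratio 0.45), with p below the same limit, and an adjusted p of 1 by the edgeR exact test. Calls of at least 1.5-fold were 7.30% of loci tested, or 3.86% for those higher in replicate 1. The 2 members among them were Mir181b-1 and Mir181b-2.

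Of the a/c type, both a loci were lower in replicate 1. Mir181a-1 was 1.24-fold higher in replicate 2 (log2 ratio -0.31, adjusted p = 3.8e-132 by the exact conditional binomial test) and Mir181a-2 1.23-fold higher in replicate 2 (log2 ratio -0.30, adjusted p = 1.5e-07 by that test). For Mir181c the log2 ratio was -0.02 (adjusted p = 0.0064 by that test), but it was 0.04 when library totals alone set the scale and 0.01 without the count minimum, so no direction can be given. Without the count minimum its call was also lost (adjusted p = 0.62 by that test). With the edgeR exact test the adjusted p was 1 for each of the 3 a/c loci.

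The log2 ratios of members are set against those of all loci as a description. Their median was 0.21, the midpoint of Mir181c at -0.02 and Mir181d at 0.45, against -0.0041 over all 466 loci tested. Over the 205 loci at 100 CPM or more, the log2 ratios had an SD of 0.31. Of 311 loci with a mean of at least 10 CPM, none had a higher ratio than Mir181b-1, and 2 had a higher ratio than Mir181b-2, which were Mir181b-1 and Mir7b (named after its values were seen). For Mir181d 21 loci had a higher ratio, and 43 loci had a lower one than Mir181a-1. The top place of Mir181b-1 rests on 125 and 33 counts and on the limit of 10 CPM, below which some loci had higher ratios.

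**Figure D5:**
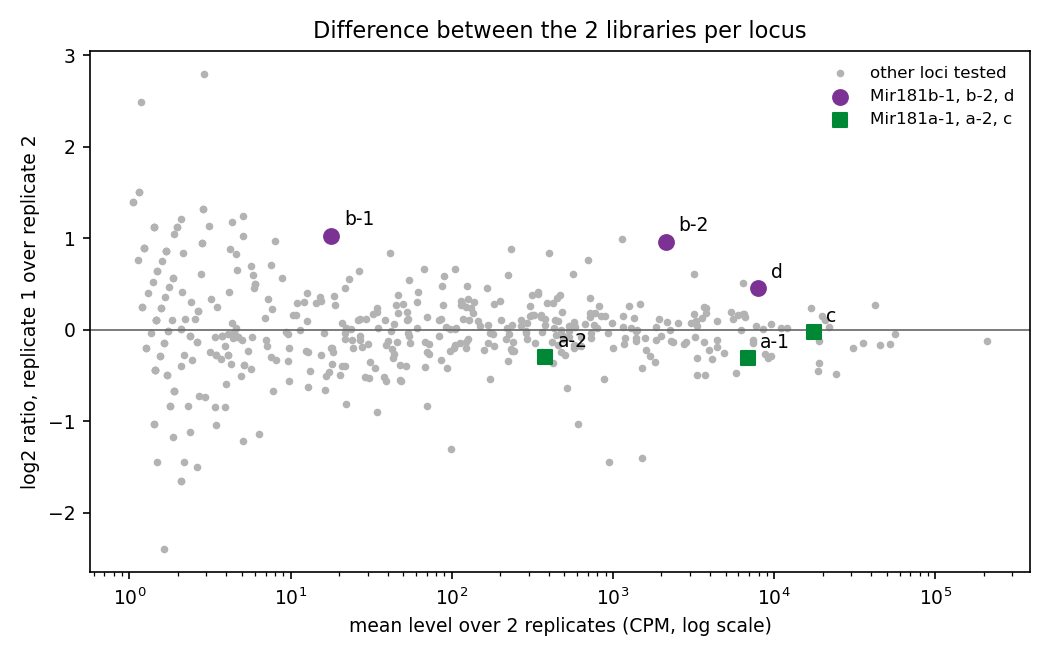
Log2 ratio of replicate 1 over replicate 2, with TMM-scaled library sizes, against the mean level in CPM (log axis) for all 466 loci tested. Mir181b-1, Mir181b-2 and Mir181d (purple circles) lie at 1.03, 0.96 and 0.45, and Mir181a-1, Mir181a-2 and Mir181c (green squares) at -0.31, -0.30 and -0.02.

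The family counts can also be divided by the type of the 5′ arm of each locus. These are sums of placed reads over hairpin loci, without plain 5′ strands of the a and b copies. They are not levels of the mature types. The b/d type took 33.4% of the family counts in replicate 1 (interval 33.1 to 33.6) and 24.0% in replicate 2 (23.7 to 24.2). Against all counts, the b/d type held 1.23% in replicate 1 and 0.795% in replicate 2, and the a/c type held 2.45% and 2.52%. The difference between replicates was 9.39 percentage points for the b/d type of the family counts. Mir181d alone held 25.5% of the family counts in replicate 1 and 19.7% in replicate 2. By cluster the difference was 2.05 points for c/d, 3.28 points for a-2/b-2 and -5.34 points for a-1/b-1 (replicate 1 minus replicate 2). The shares are of unlike size, as a-2/b-2 held 8.76% and 5.47%, so these points do not rank the groupings. As the types were grouped after the counts had been seen, the division by type is a description without a test. With 1 library per replicate no part of it can be assigned to animals, tissue pieces or library preparation.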

How the data were processed

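Each of the 2 replicates has 1 table of raw counts per gene, deposited by the authors on assembly mm10 with annotation M4, per the notes deposited beside each table. The sources used here name no aligner, trimming or filter. The tables have no header. Their columns were read as unstranded, same-strand and opposite-strand counts, since the first equals the sum of the others in 3946 of 3946 rows over both tables, and same-strand counts were used. Rows for unmapped, multimapping (34.4% and 37.7% of reads) and unassigned reads (3.79% and 3.80%) name no gene and were left out. Of 1973 IDs, 1894 matched GENCODE M21, and 5 of the 6 members matched with version. Sequences are from RefSeq (GRCm38.p6), with mature strands for 6 members and hairpins for 5 (all but Mir181c).

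CPM uses all gene rows. Depth sets a floor, from 3 counts, of 0.589 CPM in replicate 1 and 1.02 CPM in replicate 2. With 1 group no contrast could be fitted, so edgeR 4.0.16 served for TMM factors, the common dispersion and its exact test. The exact conditional binomial test was made with scipy 1.17.1 and also run on simulated counts. Those counts were drawn with counting error alone, so they cannot show how the test does where libraries vary further. Log2 ratios use a pseudocount of 0.5 CPM. Alternatives were total counts only or DESeq2 1.42.0 size factors as scaling, other count minimums, unstranded counts, thinning, another pseudocount and each replicate left out. The named loci are the 6 members and the 2 nearest to each by Euclidean distance of log2(CPM + 0.5). The members, lists and rules were chosen with earlier results of these data known.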

Additional observations from a re-analysis of the deposited data

How the results depend on the processing

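The count of 177 loci called lay between 169 and 183 with DESeq2 size factors, total counts only, no filter, a minimum of 50 counts, unstranded counts or replicate 1 thinned. It was 34 when a difference of at least 1.5-fold was required and 4 with the edgeR exact test. Of the 6 members called, 2 remained with at least 1.5-fold and 0 with the edgeR exact test, and 5 with no filter, where Mir181c lost its call. With total counts only, the calls split into 112 toward replicate 1 and 69 toward replicate 2, against 87 and 90. The log2 ratio of Mir181c turned to 0.042 with total counts only and to 0.0077 with no filter, and TMM scaling by itself shifts every log2 ratio by -0.067 relative to library totals. The other 5 members kept their direction and their call under all of these scalings and filters and with a pseudocount of 5 CPM, at -0.32 to -0.25 for Mir181a-1, -0.31 to -0.24 for Mir181a-2, 0.81 to 1.09 for Mir181b-1, 0.96 to 1.03 for Mir181b-2 and 0.45 to 0.52 for Mir181d. The family's share of all counts was 1.93%, in place of 3.50%, with multimapping reads added to the denominator but none to the family counts. Leaving out a replicate gave 3.32% and 3.68% for that share, 17.1% and 22.4% for a-1/b-1, 5.47% and 8.76% for a-2/b-2, and 72.1% and 74.2% for c/d. No log2 ratio can be had from 1 library. Depth limits Mir181b-1 most, at 33 counts in replicate 2.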
